A study of Mus musculus with 3 samples.

Results

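The cytosolic ribosomal protein genes encode the proteins of the cytoplasmic ribosome. They were taken as every gene whose symbol has the form Rpl or Rps with a number (or Rplp for the stalk proteins), plus Rpsa, provided that the annotation gives it at least 1 protein-coding isoform. The rule found 83 of 55536 annotated genes, 51 of the large subunit and 32 of the small subunit, and used no measured value. A further 6 genes have such a symbol but no protein-coding isoform and were left out. Fau, Rpl36al and Rack1 also encode ribosomal proteins and fall outside the symbol form.

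The RNA came from macrophages grown from the bone marrow of C57BL/6J mice and was sequenced as total RNA after ribosomal RNA depletion. The labels give the fraction as nucleus and, in another field, as nucleoplasm. All 3 libraries form a single group: the cells received lipid A at 100 ng/ml for 12 h, were kept without it for 12 h, and received 100 ng/ml again for 15 min. Lipid A is the part of bacterial lipopolysaccharide that the receptor TLR4 recognises. No untreated or cytoplasmic library was analysed here, so levels are described and no effect of lipid A can be read from them. Labels number the libraries as biological replicates 1 to 3 and carry the same donor identifier for all of them. The input was 500 ng of RNA in replicate 2 and 1 µg in the other libraries. No source used here says that the cultures came from separate animals, and p-values therefore measure only the spread between these libraries.

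Every ribosome holds a single copy of nearly all of these proteins, so cells make them in matched amounts. Their mRNAs belong to the TOP class, which begins with a run of pyrimidines at the cap and is translated under the control of the mTORC1 kinase and LARP1. Ribosomal protein genes are also known for introns that carry small nucleolar RNAs (snoRNAs), which guide the modification of ribosomal RNA, and for the many processed pseudogenes derived from their mRNAs.

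The libraries held 23826101, 19312032 and 21730342 expected counts on annotated genes in replicates 1, 2 and 3. These values, called RSEM-format after their column names, are used throughout, and a separate deposited quantification of the same libraries, with the columns of kallisto, is called kallisto-format. The members took 69401, 46433 and 54049 of them, which is 0.291%, 0.240% and 0.249%. The small nuclear RNA Rn7sk alone took 30.1%, 33.3% and 28.4% of the TPM (transcript levels per length, scaled to a fixed sum in each library), and protein-coding genes of the nuclear genome took 20.0%, 22.2% and 20.6%. All 10 macrophage markers were detected, that is, reached a TPM of 1 in each library. Detected markers of other cells numbered 0 of 8 for granulocytes, 0 of 8 for T and NK cells, 0 of 6 for B cells, 0 of 6 for fibroblasts and 1 of 7 for erythroid cells (Alas2).

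The pyrimidine runs that give the TOP class its name were looked for in the reference, because they are the sequence feature these genes are known to share. RefSeq promoter windows (GRCm38.p6, 250 bases before to 50 after the annotated start) matched 63 of the 83 members. The stretches below are 30 bases each, 5′ to 3′ on the gene's strand, with the longest run of C and T within 50 bases of the start in capitals, or the one nearest the start where runs are equally long, as in Rps27l. All come from members with a run of at least 8 pyrimidines there. Rplp0 of the stalk and the paralogue Rpl7l1 were among the members without one. The stretches show the large and small subunit, the stalk and the proteins that bind 5S ribosomal RNA. They also show the member with the most snoRNAs and the paralogues Rps27l and Rpl22l1.
Rps9 (chr7:3704025-3704054, plus strand): aaccgccttgTCTCTCTTTgtctcgggcct
Rps12 (chr10:23787181-23787210, minus strand): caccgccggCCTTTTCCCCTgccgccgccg
Rpl13a (chr7:45128722-45128751, minus strand): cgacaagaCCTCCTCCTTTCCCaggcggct
Rplp2 (chr7:141447636-141447665, plus strand): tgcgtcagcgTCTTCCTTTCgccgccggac
Rpl5 (chr5:107900498-107900527, plus strand): cctacagccaCTCTTTCTCacgtcgcttgc
Rpl11 (chr4:136053357-136053386, minus strand): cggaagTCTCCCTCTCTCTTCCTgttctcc
Rpl4 (chr9:64173406-64173435, plus strand): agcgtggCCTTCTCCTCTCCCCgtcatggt
Rps27 (chr3:90213631-90213660, minus strand): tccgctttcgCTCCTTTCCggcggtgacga
Rps27l (chr9:66946064-66946093, plus strand): ctcctctccaCTCCTCCCCgccgcctctat
Rpl22 (chr4:152325679-152325708, plus strand): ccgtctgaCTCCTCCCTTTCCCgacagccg
Rpl22l1 (chr3:28805499-28805528, plus strand): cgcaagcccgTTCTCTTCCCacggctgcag

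A run of at least 8 pyrimidines within 50 bases of the annotated start, on the gene's strand, was present in 50 of the 60 detected members with a window (83.3%). The same run was present in 32.7% of the 9657 windows of detected protein-coding genes and in 35.7% of all 32851 windows. Starts of transcription were not measured here, and the annotated starts often lie some bases from the run: it begins 5 bases before the start in Rplp2 (position -5), at position -39 in Rpl22 and at position 26 in Rpl4, where 0 is the annotated start. On both strands of the whole window, the letters CCGGAAG, as in sites of ETS factors, were found in 23 of 60 members (38.3%), in 20.0% of windows of detected protein-coding genes and in 8.86% of all windows. GGGCGG, the GC box, was in 61.7% of members, 63.1% of detected protein-coding genes and 35.7% of all windows. TATAAA was in 10% of members, 6.86% of detected protein-coding genes and 13.6% of all windows. These matches describe letters in the reference and not factor binding.

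Of the 83 members, 80 were detected in the nuclear RNA. The 3 others are paralogues known from testis or muscle. Rpl10l, on chromosome 12, had 0 counts in each library. Rpl39l had 1, 0 and 2 counts and Rpl3l had 0, 1 and 1, all at or under the limit of 3 counts that a count of 0 allows. Their counterparts were all detected, Rpl10 at 87.2 ± 8.63 TPM, Rpl39 at 18.7 ± 2.39 TPM and Rpl3 at 72.6 ± 7.44 TPM (SD, n = 3). Rps4x was at 34.2, 34.8 and 24.8 TPM, and its listed counterpart Rps4l is a pseudogene outside the 83.

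The detected members had a median TPM of 39.7, 37.9 and 32.9 in replicates 1, 2 and 3, against 8.21, 9.26 and 8.11 for the 9434 detected protein-coding genes. Their levels ran over an 18.2-fold range, with 46 of 80 between 20 and 60 TPM and 3 above 100 TPM. Their summed level was 3570, 3443 and 3037 TPM, or 1.61% ± 0.17 (SD, n = 3) of the TPM of nuclear protein-coding genes. The 78 mitochondrial ribosomal protein genes, 77 of them detected, encode the separate ribosome of mitochondria and summed to 503, 518 and 460 TPM. In bulk RNA, fewer cells making a transcript and less of it per cell cannot be told apart.

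**Figure D1:**
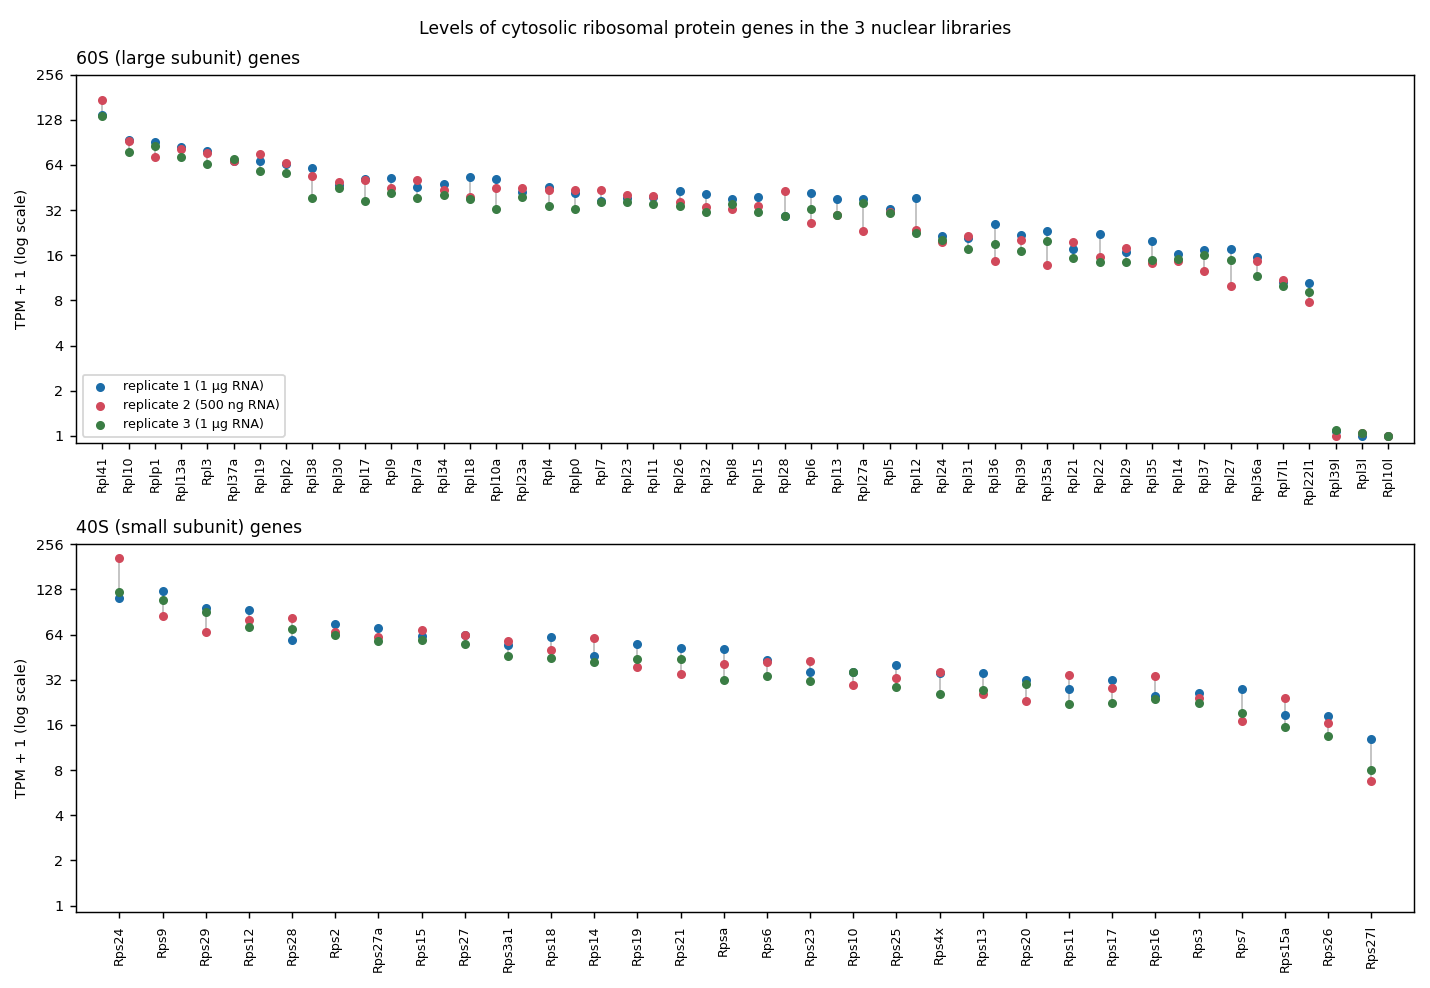
TPM + 1 of 80 of the 83 members (y axis, log scale) in the 3 libraries (coloured points, joined by a grey line), ordered by mean within the large (top) and the small subunit (bottom). Rpl41 and Rps24 lead the 2 panels, and Rpl39l, Rpl3l and Rpl10l lie at the bottom at or near 0 TPM.

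Rpl41, a very short basic protein of the large subunit, was at 136, 172 and 134 TPM in replicates 1, 2 and 3, the highest mean among members (147 ± 21.7 TPM, SD, n = 3). Rps24, a small subunit protein, was at 110, 207 and 123 TPM. The mean levels of these 2 genes differed by less than their spread over libraries, and replicate 2 was the highest library for both. Rps9, a protein of the mRNA channel, was at 124, 84.4 and 108 TPM, with replicate 2 the lowest. Below these 3, the next members by mean were Rpl10 (87.2 ± 8.63 TPM), Rps29 (83.6 ± 15.6), Rplp1 (82.0 ± 9.35), Rps12 (80.8 ± 10.9), Rpl13a (78.0 ± 6.33), Rpl3 (72.6 ± 7.44) and Rps28 (69.2 ± 11.8), each over 3 libraries. Neighbours in that order did not differ beyond their spread.

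At the low end, Rpl27 was at 16.7, 9.02 and 13.98 TPM and Rpl36a at 14.5, 13.7 and 10.7 TPM. By these RSEM-format values the last 3 detected members were all paralogues of another member. Scaled over nuclear protein-coding genes, kallisto-format values placed Rpl12 (31.5) below the paralogues Rps27l (39.3) and Rpl7l1 (51.4). Rpl7l1, a relative of Rpl7, was at 9.65, 9.99 and 8.94 TPM, where Rpl7 was at 36.1, 42.7 and 35.2 TPM. Rps27l, a target of p53, was at 11.9, 5.79 and 7.02 TPM, where Rps27 was at 62.1, 63.0 and 54.0 TPM. Rpl22l1 was at 9.42, 6.78 and 8.15 TPM, where Rpl22 was at 21.1, 14.6 and 13.4 TPM. In each of these 3 pairs every library of the paralogue lay below every library of its counterpart.

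The P stalk, which recruits the elongation factors, is built from Rplp0 with several copies of Rplp1 and Rplp2. Rplp1 was at 89.8, 71.6 and 84.6 TPM, Rplp2 at 63.5, 65.3 and 55.4 TPM, and Rplp0 at 40.4, 42.8 and 31.7 TPM. The libraries of the 3 genes did not overlap, and Rplp0 was the lowest in each library. Rpl5 and Rpl11 bind 5S ribosomal RNA and, outside the ribosome, the p53 regulator Mdm2. Rpl5 was at 31.5, 30.3 and 29.6 TPM and Rpl11 at 38.2, 38.5 and 33.9 TPM. Mdm2 itself was at 58.6, 60.6 and 74.4 TPM.

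The other structural groups differed in their medians. The 9 members near the exit of the peptide tunnel had median levels of 41.0, 35.3 and 32.9 TPM, led by Rpl19, Rpl17, Rpl23a and Rpl4. The 10 found of 11 listed proteins of the decoding site and mRNA channel had 53.3, 60.3 and 49.3 TPM, led by Rps9, Rps12, Rps2 and Rps27a. By these RSEM-format values they were higher in each library than the tunnel exit group in any. By kallisto-format values the gap between the medians of the 2 groups was narrower, in the same direction. Scaled over nuclear protein-coding genes, Rps12 was at 388 by RSEM-format and 66.3 by kallisto-format values. The 18 members mutated in Diamond-Blackfan anaemia, an inherited failure of red cell production, had 36.7, 31.6 and 31.6 TPM. Large and small subunit genes differed little: the large-minus-small difference of medians on the log2(TPM + 1) scale was -0.18 ± 0.06 (SD, n = 3) over all members and -0.11 ± 0.07 over the detected, since the 3 undetected genes are all of the large subunit.

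Ribosomal protein genes outside the symbol form lay in the members' range. Fau, which encodes Rps30 fused to a ubiquitin-like protein, was at 84.7, 113 and 89.6 TPM. Rack1, a scaffold on the small subunit, was at 43.4, 35.7 and 29.8 TPM, and Rpl36al was at 23.3, 21.5 and 15.5 TPM. The list of 25 other TOP genes, made of elongation and initiation factors and a few more, had median levels of 34.7, 35.1 and 24.3 TPM with all 25 detected, led by Eef1a1, Vim, Pabpc1 and Eif4a2. Rack1 and Fau are on this list.

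Lists of genes that act on ribosomal protein mRNAs or build the ribosome had lower median levels than the members. Single genes on these lists, Larp1 and Ncl among them, lay within the members' range. Of 17 regulators of TOP translation 16 were detected, with median levels of 8.74, 13.5 and 10.3 TPM; Larp1, which binds the TOP sequence, was at 37.8, 35.9 and 41.2 TPM. Of 64 ribosome assembly factors found, 63 were detected, with median levels of 6.15, 5.80 and 5.09 TPM, led by the nucleolar protein Ncl at 35.0, 42.0 and 29.1 TPM. Of 18 genes of RNA polymerase I and 5S transcription 17 were detected, with median levels of 4.995, 4.72 and 4.04 TPM. The mitochondrial ribosomal protein genes had median levels of 5.23, 4.90 and 4.56 TPM.

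Members varied between libraries about as much as other genes. The median SD of log2(TPM + 1) over the 3 libraries was 0.21 for the 80 detected members, 0.20 for all detected protein-coding genes and 0.20 for the 4732 of them within the members' range of levels. Rpl37a varied least, at 67.4, 67.4 and 69.0 TPM (SD 0.02), and low SDs were also found in Rpl5 (0.04), Rpl24 (0.06) and Rpl30 (0.06). Among those with the largest SD were Rps24 (0.48), Rps27l (0.48), Rpl12 (0.43) and Rpl27 (0.42). In TPM the highest library was replicate 1 for 51 members, replicate 2 for 28 and replicate 3 for 1, and the lowest was replicate 3 for 54.

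In Rps24 the assignment to isoforms differed between libraries. Rps24 had nearly equal counts, 2745, 2743 and 2831, or 115, 142 and 130 CPM (counts scaled to the library's total), while its TPM was 110, 207 and 123. Its mean effective length, by which TPM divides, was 680, 511 and 725 bases. The short isoform Rps24-201 was at 69.6, 156 and 77.1 TPM and the long Rps24-210 at 22.3, 30.1 and 25.4 TPM. Gene totals can also stay level while isoforms trade places: Rpl11-201 was at 28.2, 12.0 and 25.3 TPM and Rpl11-210 at 0, 20.8 and 0, with the total of Rpl11 between 33.9 and 38.5 TPM.

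Rps24 ends its message in several ways, through 2 very short exons that annotated isoforms include or skip, which are shown because the split between Rps24-201 and Rps24-210 rests on this region. They are given 5′ to 3′ on the plus strand of chromosome 14 (mm10, from the GENCODE M21 transcripts), with capitals for the 3 bases that form the whole last exon of the Rps24-201 model.
Rps24 exon of 18 bases (chr14:24494052-24494069): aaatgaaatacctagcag
Rps24 exon of 20 bases (chr14:24495430-24495449): TGAgtggagattggatacag

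Rps24-210 skips both exons and ends in an exon of 1185 bases at chr14:24495775-24496959. The 3 isoforms that hold the whole 20-base exon summed to 4.93, 7.70 and 1.78 TPM. The only isoform with the 18-base exon, Rps24-205, was listed at 0 TPM in every library. Because the Rps24-201 model stops 3 bases into the 20-base exon, reads that run further into that exon cannot be assigned to it, and its level rests on the exons it shares with the other isoforms.

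Each library was then compared with the other 2. Each comparison sets 1 library against 2 of the same group with 1 residual degree of freedom, and the lone library is assumed to vary like the others, so a count of 0 does not show that the libraries were alike. Expected counts were fitted with edgeR's quasi-likelihood test over 14350 genes, with Benjamini-Hochberg adjustment over all of them, and the 3 comparisons share their libraries. All 80 detected members entered the test. No member passed an adjusted p of 0.05 in any of the 3 comparisons. Over all genes 0.202% passed for replicate 1, 0.00% for replicate 2 and 0.00697% for replicate 3, so the members' counts of 0 lie near the background. The lowest adjusted p of a member was 0.339 (edgeR), for Rpl12 in replicate 1. DESeq2, edgeR with DESeq2 size factors, edgeR without a filter and edgeR on kallisto-format counts also called 0 members in each comparison.

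At an unadjusted p under 0.05 edgeR gave 3 members higher in replicate 1 (3.50% of all genes were so), 10 lower in replicate 2 (3.73% of all genes) and 0 in replicate 3 (1.37% lower and 2.36% higher over all genes). The 3 of replicate 1 were Rpl12, Rpl10a and Rpsa. Rpl12 had 37.9, 21.02 and 20.6 CPM, a log2 fold change of 0.85 ± 0.25 (SE). The 10 of replicate 2 included Rps29, Rpl27, Rpl27a, Rps9 and Rplp1. Rps29 had 25.3, 15.4 and 27.5 CPM and Rpl27 had 10.2, 4.70 and 8.74. In Rps29, Rpl27, Rpl27a, Rps9 and Rplp1 replicate 2 was the lowest library both in CPM and in TPM. None of these 13 passed the adjustment over all genes.

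In the first 2 comparisons most members lay on the same side of 0. In replicate 1, 70 of 80 members had a fitted log2 fold change above 0, against 48.3% of all genes, with a median of 0.23 against -0.01 for all genes. In replicate 2, 71 of 80 lay below 0, against 50.9% of all genes, with a median of -0.27 against -0.01. In replicate 3, 38 of 80 lay above 0 (46.8% of all genes), with a median of -0.01 against -0.02. Some other lists lay mostly on the same sides of 0: 62 of 78 mitochondrial ribosomal protein genes, 57 of 64 assembly factors and 9 of 10 macrophage markers were above 0 in replicate 1, and 26, 23 and 1 of them in replicate 2. The other TOP genes had 19 of 25 above 0 in replicate 1 and 10 in replicate 2, and genes of RNA polymerase I and 5S transcription 11 and 4 of 18. Further lists did not follow: the regulators of TOP mRNAs and mTORC1 had 10 and 8 of 17 above 0, the p53 surveillance genes 1 and 3 of 4, and the nuclear retained RNAs 3 of 5 in both. Replicate 2 was also the library with the smaller RNA input, the fewest counts and the largest mitochondrial share of TPM (5.71%, against 3.74% and 2.16% in replicates 1 and 3). The part of these differences in the members' shift was not tested. The macrophage markers summed to 4729, 4140 and 3417 TPM. In CPM replicate 2 was the lowest library for 45 of 80 members and in TPM, which divides by each library's own effective lengths, replicate 3 was the lowest for 54, so the order of libraries 2 and 3 depends on the scale.

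**Figure D2:**
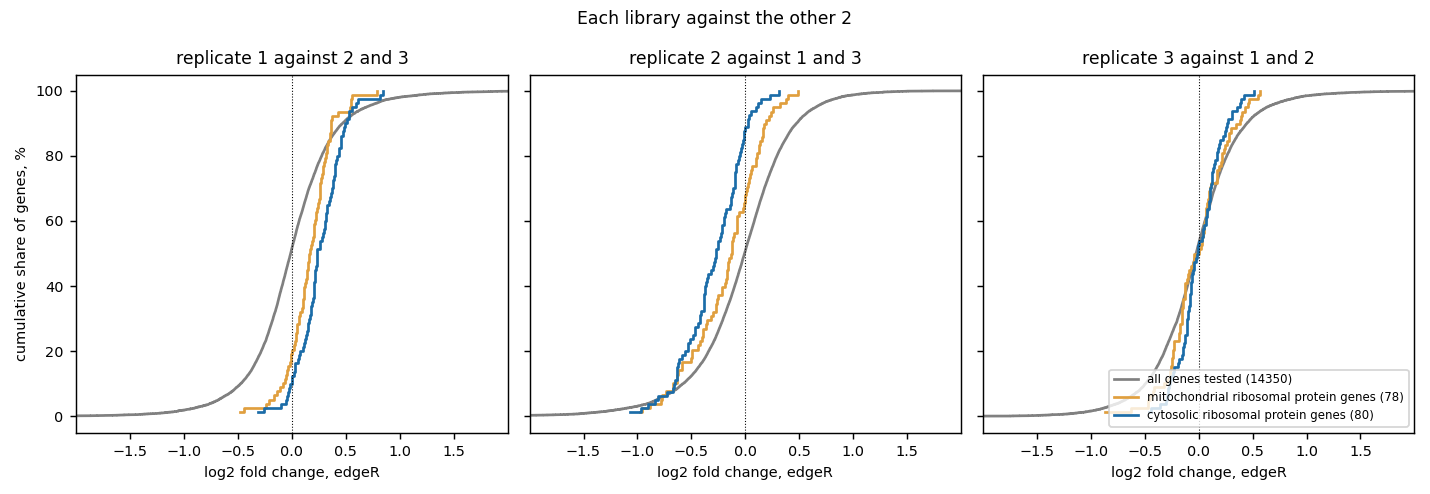
Cumulative share of genes (y axis, %) by fitted log2 fold change (x axis, edgeR) of each library against the other 2, for the 80 members, the 78 mitochondrial ribosomal protein genes and all 14350 genes tested. The members' curve lies right of all genes for replicate 1 (median 0.23), left for replicate 2 (median -0.27) and around 0 for replicate 3 (median -0.01).

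The annotation splits the members into 498 isoforms: 232 protein-coding, 176 retained-intron, 65 processed transcripts and 25 with a predicted nonsense-mediated decay (NMD), the pathway that removes messages with an early stop codon. Some ribosomal protein genes are known to use such isoforms to limit their own output. For the 64 detected members with a retained-intron isoform, the median share of the gene's TPM on these isoforms was 15.1%, 13.3% and 14.1%, or 14.2% ± 0.88 (SD, n = 3). Over all 5980 detected protein-coding genes that have one it was 23.8%, 24.5% and 23.6%. Of the members, 21 lay above that median of all genes, 7 had a share above 50% and 10 had one under 5%. The annotation has no isoform for a fully unspliced precursor, and the part of precursor reads in these shares was not tested.

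Rps16, a small subunit protein, had the largest retained-intron share: 86.7%, 95.7% and 94.0%. Its protein-coding isoform Rps16-201 was at 3.17, 1.42 and 1.35 TPM, while the retained-intron isoform Rps16-203 was at 15.8, 27.8 and 14.8 TPM. Rpl5, which binds 5S ribosomal RNA, followed with 85.6%, 79.4% and 80.8%, spread over 4 retained-intron isoforms. Rps20 had 82.1%, 72.5% and 81.7%, and Rpl37 had 64.1%, 66.4% and 65.6%. In these 4 genes every library lay above 50%. Rps26 had a mean of 60.1% that rested on replicate 3, with 49.0%, 48.9% and 82.3%. At the other end, Rps27l was listed at 0%, and Rplp0 (2.41% ± 2.14), Rpl23a (2.45% ± 1.87), Rps21 (2.94% ± 0.25) and Rpl19 (3.02% ± 0.96) had the next lowest shares (SD, n = 3).

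**Figure D3:**
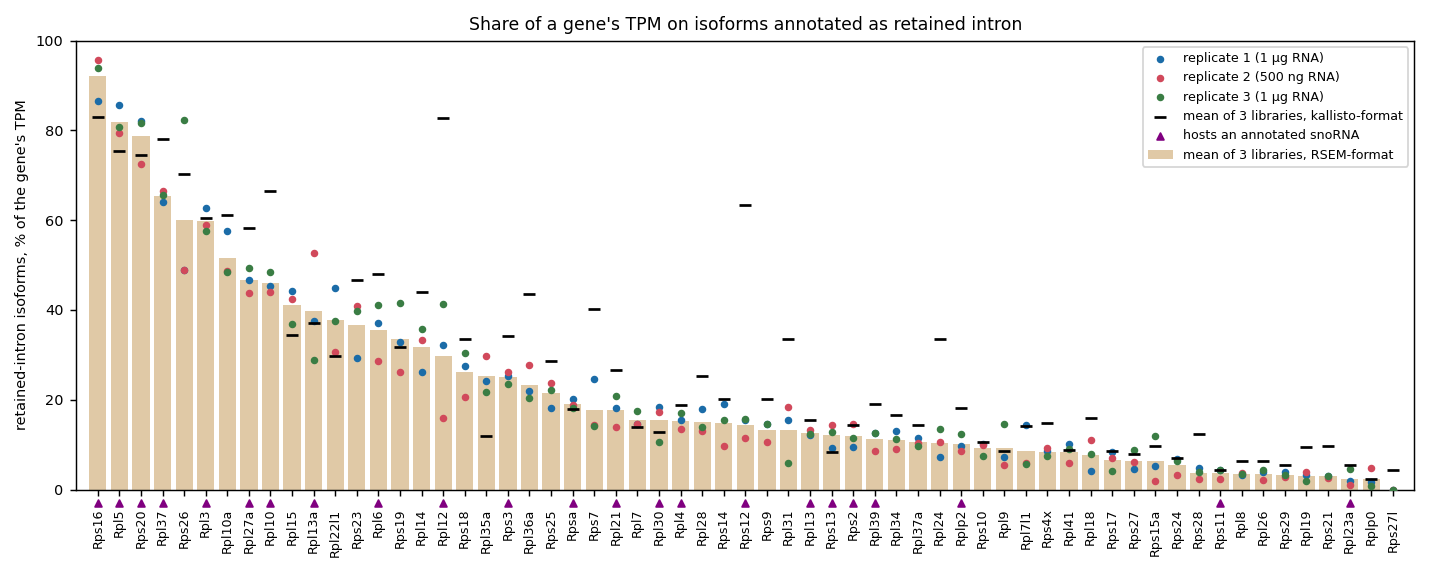
Percent of each gene's TPM on isoforms annotated as retained intron (y axis) for 61 of the 64 detected members that have one, with RSEM-format means of 3 libraries as bars, single libraries as coloured points, kallisto-format means as black dashes and snoRNA hosts as purple triangles. Rps16, Rpl5 and Rps20 lie above 70% in all 3 libraries, and the dashes of Rps12 and Rpl12 lie far above their bars.

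Predicted NMD isoforms exist for 19 detected members, with a median share of 5.67% ± 0.96 (SD, n = 3). The 2958 detected protein-coding genes with an NMD isoform had a median of 3.78% ± 0.42. With kallisto-format TPM the order of these medians was the opposite, 6.08% ± 0.76 for members and 7.82% ± 0.36 for all such genes. The 2 largest shares were in Rpl12 (54.9%, 68.2% and 47.0%) and Rpsa (55.0%, 49.4% and 55.0%). Further large shares were in Rpl14 (24.2% ± 8.02) and Rpl13a (23.98% ± 2.73). Rpl12 encodes a protein at the base of the stalk and Rpsa a small subunit protein also known as the laminin receptor. In both a single isoform led, Rpl12-201 at 20.5, 15.4 and 10.1 TPM and Rpsa-206 at 27.7, 19.8 and 16.9 TPM. Altogether 13 of 80 detected members had a leading isoform that is not protein-coding, 9 of them retained-intron and 3 NMD.

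Of the detected members, 30 hold at least 1 annotated snoRNA inside their gene body on the same strand, 58 snoRNAs in all, and 15 hold more than 1. Rpl4 holds 5, Rpl13a holds 4, and Rpl5, Rpl7a, Rpl17, Rpl23a, Rps12 and Rpsa hold 3 each. Host genes had median levels of 40.9, 39.4 and 33.9 TPM and the 50 other detected members 38.1, 36.5 and 32.3 TPM. Retained-intron shares had a median of 20.1%, 17.3% and 20.7% in 25 hosts and of 11.5%, 9.996% and 11.3% in 39 other members. Without the isoforms whose exons contain a snoRNA, a choice made after seeing the data, the hosts' median was 18.2%, 13.3% and 16.7%.

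How many of the snoRNAs were counted depended on the quantification. Of the 58, 45 had 0 RSEM-format expected counts in all 3 libraries and 3 had at least 10 in each. By kallisto-format counts 19 had 0 in all 3 libraries and 16 had at least 10 in each, and 11 of these 16 had 0 by RSEM-format counts, among them Snord83b in Rpl3 (59, 35 and 68 kallisto-format counts). The 3 with at least 10 RSEM-format counts lie in Rpsa and Rps3: Gm26448 in Rpsa had 116, 32 and 254 counts, Snord15a in Rps3 had 107, 53 and 212, and Snord15b in Rps3 had 78, 12 and 154. They are 203, 148 and 145 bases long, while the labels give a fragment range whose lower end is above all of them. Replicate 2 was the lowest library for all 3 snoRNAs and replicate 3 the highest. Over all hosted snoRNAs the sums were 339, 99 and 675 RSEM-format and 876, 527 and 1215 kallisto-format counts, not scaled for depth. Replicate 3 was the highest in both sums, while the median TPM of the host genes was highest in replicate 1 and lowest in replicate 3. Counts and TPM are unlike measures. In CPM, replicate 2 was the lowest library for 45 of the 80 detected members.

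Processed pseudogenes and other near-identical copies limit how reads of these genes can be assigned. In 54 of 80 detected members, at least 1 other gene outside the list held 50% or more of the 31-base words of the leading isoform, or of the leading protein-coding isoform, 157 such copies in all, of which 144 are annotated as pseudogenes. The 2 deposited quantifications were set side by side after scaling nuclear protein-coding genes to the same fixed sum in each library. On this scale the kallisto-format level was a median 0.80 times the RSEM-format level, and 75 of 80 members lay within a factor of 1.5. Across the 80 genes, which are not independent replicates, the Spearman correlation of the 2 levels was 0.91.

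Rps12 stood furthest apart, with 388 by RSEM-format and 66.3 by kallisto-format values, a ratio of 0.17. Its 5 copies held 19.5 and 256 in the same order. Rps12-ps9 led them by RSEM-format values (11.4, 5.097 and 8.87 in the 3 libraries) and Rps12-ps3 by kallisto-format values (263, 95.3 and 212). Rps12l1 was above 0 in replicate 2 alone, at 17.3 by RSEM-format and 168 by kallisto-format values. Summed with its copies, a choice made after seeing the data, Rps12 was at 408 and 322, a ratio of 0.79. Rpl12 was at 131 and 31.5, and its copies, led by the pseudogene Gm10275, at 12.9 and 155, so that the sums were 144 and 186. Rpl10 was at 418 and 220 alone, a ratio of 0.53, and at 439 and 329 with its 7 copies. In these 3 genes the copies held more in the quantification where the member held less, and the placing of Rps12 and Rpl10 among the 10 highest members therefore depends on the quantification.

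For other members the copies held more in the RSEM-format values. Gm10076, annotated as a long noncoding RNA, shares 64.6% of the 31-base words of Rpl41 and was at 197, 167 and 124 in the 3 libraries by RSEM-format values, against 0.74, 5.31 and 0 by kallisto-format values. Rpl27 was at 64.1 and 67.4, below its 2 copies by RSEM-format values (85.4) and above them by kallisto-format values (49.2). Rpl35a was the only member more than 1.5 times higher by kallisto-format values (86.8 and 153), and its copies held 1.24 and 1.23. Among the 26 detected members with no such copy the ratio ran from 0.72 to 1.13.

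**Figure D4:**
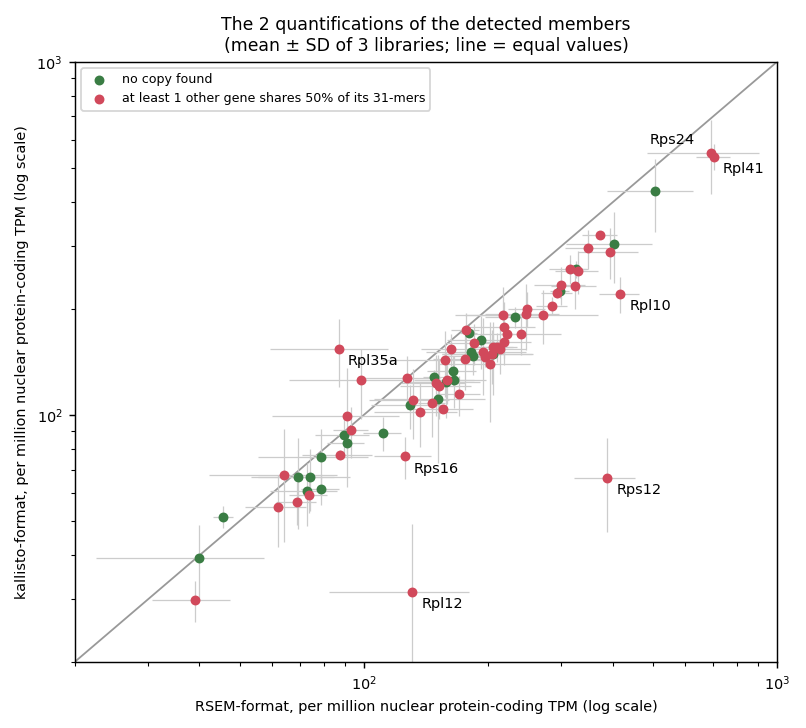
RSEM-format level (x axis) against kallisto-format level (y axis) of the 80 detected members, both scaled over nuclear protein-coding genes, on log scales, as means ± SD of 3 libraries. Most points lie just under the line of equal values, and Rps12 (388 and 66.3), Rpl12 (131 and 31.5) and Rpl10 (418 and 220), all with copies, lie furthest below it.

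Isoform shares also differed between the quantifications. Of 64 members, 49 (76.6%) had a larger retained-intron share by kallisto-format values, as did 68.3% of the 5980 detected protein-coding genes with a retained-intron isoform, whose median share was 23.95% by RSEM-format and 28.4% by kallisto-format values. Rps12 had 14.3% ± 2.39 by RSEM-format and 63.4% by kallisto-format values, and Rpl12 had 29.8% ± 12.9 and 82.9%. The NMD share of Rpl12 was 56.7% ± 10.7 and 15.5%, and that of Rpl14 24.2% ± 8.02 and 10.2%. Rpsa kept an NMD share of like size (53.1% ± 3.25 and 57.2%). Rps16 (92.1% ± 4.79 and 83.0%), Rpl5 (81.9% ± 3.27 and 75.4%), Rps20 (78.8% ± 5.41 and 74.6%) and Rpl37 (65.4% ± 1.19 and 78.1%) kept retained-intron shares above 50% under both (means of 3 libraries, ± SD). These shares count a gene's own isoforms and leave out its copies. On the scaled RSEM-format and kallisto-format values, Rpl5 was at 146 and 108 and its 2 copies at 93.2 and 90.9. Rps16 was at 125 and 76.3 and its copies at 19.8 and 48.0. Rps20 was at 132 and 110 and its copy at 7.56 and 35.1. Whether reads of the members' spliced messages were assigned to these copies was not tested.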

How the data were processed

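The authors' gene and transcript tables rest on mm10 with the M21 release of GENCODE, per the file headers and notes. The expected (estimated) counts and TPM in them were deposited per library in the columns that RSEM writes; a further transcript table holds the authors' estimated counts and TPM in the columns that kallisto writes. No source used here names the tools or versions. The members and gene lists were chosen with earlier results of these data known. Kallisto-format values were summed per gene. Levels are TPM, or log2(TPM + 1) for medians of all members; detected genes reached a TPM of 1 in each library. For the library comparisons, expected counts were rounded, filtered with filterByExpr, scaled by TMM and fitted with edgeR 4.0.16; DESeq2 1.42.0 (R 4.3.3) was an alternative. The fit was tested on simulated data for replicate 2 against the other libraries. There it missed most 2-fold changes, found most changes of 4-fold or more, and also called a few unchanged genes. Isoform shares are percentages of a gene's TPM; classes and coordinates (from 1) come from GENCODE M21. Copies share at least 50% of 31-base words. Named genes are the 10 highest and 5 lowest members, undetected members, stalk, 5S and paralogue genes, the 5 extremes of SD and isoform shares, the main snoRNA hosts, and up to 4 genes per other list; further names were chosen after their values were seen. Values of a few single genes are not reported here. Python 3.11.15 was used.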

Additional observations from a re-analysis of the deposited data

Results flagged for a closer look

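Both Rps4l and Rps3a2, which have symbols like the members but are annotated as processed pseudogenes (Rps4l as a transcribed one) and are not among the 83, exceeded in every library the limit of 3 counts set by a count of 0, by RSEM-format expected counts. Rps4l had 22, 14 and 14 expected counts in replicates 1, 2 and 3, and 23, 17 and 14.02 kallisto-format counts. Rps3a2 had 7.59, 17.1 and 3.99 expected counts; estimated counts need not be whole numbers. By kallisto-format counts Rps3a2 had 1.7, 1.38 and 0, under that limit in every library, and it shares 68.2% of the 31-base words of the member Rps3a1. At 0.84, 0.75 and 0.58 TPM, Rps4l lay below the level used for detection, as did Rps3a2 in replicates 1 and 3 (0.36 and 0.21 TPM), with 1.15 TPM in replicate 2.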

How the results depend on the processing

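All 3 library comparisons called 0 members under every alternative run; leaving out a library was not run there, since no residual spread would remain. Over all genes edgeR called 29, 0 and 1 for replicates 1, 2 and 3, DESeq2 85, 28 and 35, edgeR with DESeq2 size factors 2, 0 and 1, edgeR without a filter 0, 349 and 161, and edgeR on kallisto-format counts 18, 0 and 0. Under the alternatives from DESeq2 to kallisto-format counts, in that order, the members' median log2 fold change was 0.24, 0.23, 0.24 and 0.27 for replicate 1. For replicate 2 it was -0.28, -0.28, -0.29 and -0.32, and for replicate 3 -0.003, -0.004, -0.0004 and 0.03. Over all genes tested it was -0.03, -0.02, -0.03 and -0.02 for replicate 1 and -0.06, -0.01, -0.07 and 0.003 for replicate 2. The members' median log2(TPM + 1) of 5.17 was 3.46 ± 1.04 (SD, n = 3) with kallisto-format TPM and 7.40 with TPM rescaled over nuclear protein-coding genes. Nuclear protein-coding genes took 8.47%, 14.7% and 2.92% of kallisto-format TPM in replicates 1, 2 and 3, against 20.0%, 22.2% and 20.6% of RSEM-format TPM. Unscaled TPM of the 2 quantifications are therefore not on the same scale. Their share of nuclear protein-coding TPM (1.61%) was 0.356% when taken from expected counts, which are not divided by length, and 1.25% with kallisto-format TPM. The median retained-intron share (14.2%) was 16.4% with expected counts and 18.5% with kallisto-format TPM. The large-minus-small difference (-0.18) was -0.11 over detected members and -0.032 with kallisto-format TPM. Leaving out 1 library gave 5.11 to 5.24 for the median level, 1.51% to 1.67% for the share, 13.7% to 14.6% for retained introns, 5.12% to 5.96% for NMD and -0.21 to -0.16 for the subunit difference. Members detected numbered 80 at TPM limits of 0.1 and 5 and 77 with kallisto-format TPM. With 3 libraries of 1 group, depth and number limit precision, and differences within the spread were not detectable.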
